A study of Mus musculus with 4 samples.

Results

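The transcripts described here are those of haemoglobin and of haem synthesis in the mouse prefrontal cortex: the alpha-globin genes Hba-a1 and Hba-a2, the beta-globin genes Hbb-b1, Hbb-b2 and Hbb-bt, the haem enzymes Alas1, Alas2 and Fech, and Bpgm, an enzyme of red cell metabolism. They were found by an exact match of the gene name on the array, with control spots left out, and every probe was kept apart. This gave 9 genes read by 12 probes on 39 spots, of 36693 gene names, 56605 probes and 59305 non-control spots on the array. The genes had been chosen by their measured differences between these same arrays, in which globin and Alas2 signals stood out, so their differences are given as a description, with no test.

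The study set a starch diet against a sucrose diet in wild-type mice and in mice heterozygous for Glo1, the gene of glyoxalase 1, an enzyme that detoxifies methylglyoxal. The mice were of the B6J strain and 3 months old, and each diet began on postnatal day 21 and lasted about 70 days. The 4 groups were wild-type starch, wild-type sucrose, Glo1 heterozygous starch and Glo1 heterozygous sucrose. In each group the RNA of 3 prefrontal cortex samples was pooled and hybridised to 1 one-colour Agilent array, so no group has a replicate and the spread between mice was not measured. The nature of the Glo1 allele and the sex of the mice were not given in the sources used here. All mice were killed by cervical dislocation and decapitation, and no perfusion step was described in the protocols.

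Haemoglobin of the adult mouse is a tetramer of alpha and beta chains, each of which holds 1 haem group. Its messenger RNA is made in very large amounts by red cell precursors and persists in reticulocytes, the youngest circulating red cells, so tissue that contains blood holds some of it. Haem is made in mitochondria and the cytosol by a chain of enzymes: the first step, 5-aminolevulinate synthase, is encoded by Alas2 in erythroid cells and by Alas1 in all tissues, and Fech inserts the iron in the last step. Globin transcripts have also been described in some neurons and glia of the rodent brain.

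Signals are given as levels, the background-subtracted spot signal divided by the 75th percentile of the non-control spots of the same array. A level of 1 is therefore the signal of a probe at that percentile. Changes are differences of log2 levels, so that -1 is a 2-fold lower signal, and levels of different probes are not comparable with each other. The 75th percentile lay between 1780 and 1929 signal units on the 4 arrays, and 77.6% to 80.2% of the spots were well above background. All 12 probes were well above background on all 4 arrays, and their spots reached at most 29.6% of the saturation value. The Glo1 probe had levels of 4.04 and 5.53 on the wild-type starch and sucrose arrays and of 2.74 and 3.04 on the heterozygous ones, or 67.7% and 55.0% of wild-type, which goes with the genotype labels. Cortical neuron markers were measured in 10 of 10 genes, with summed levels of 146 to 170. Markers of other tissue differed between the arrays: 9 measured choroid plexus genes summed to 0.933, 2.15, 0.880 and 69.9 on the wild-type starch, wild-type sucrose, heterozygous starch and heterozygous sucrose arrays, and 10 striatal genes to 34.2, 56.4, 52.5 and 29.4 in the same order. Of the choroid plexus genes 8 of 9, led by Ttr, Kcne2, Folr1, Sostdc1, Clic6 and Otx2, were 2-fold higher on heterozygous sucrose than on either heterozygous starch or wild-type sucrose. Of the striatal genes 5 of 10 passed 2-fold in each diet comparison, in opposite directions, among them Gpr6, Adora2a, Drd1 and Rgs9. Their part in the results below was not tested.

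The alpha-globin signal was lower on both sucrose arrays than on both starch arrays at all 3 probes. The probe of Hba-a1 near the 3′ end of its transcript (A_51_P169730, chr11:32184427-32184486, plus strand, mm9) was printed 10 times per array. In wild-type mice its level was 115 with starch and 58.1 with sucrose, and in heterozygous mice 97.1 with starch and 64.4 with sucrose. The single spots spanned 109 to 122, 55.9 to 60.9, 94.0 to 101 and 61.4 to 68.0, so the spots of no pair of arrays overlapped. The change with sucrose was -0.98 on the log2 scale (1.97-fold lower) in wild-type mice and -0.59 (1.51-fold lower) in heterozygous mice, with a technical SD of 0.020 from the repeated spots. That SD covers the error of the array alone and says nothing of the spread between mice. In a piece of tissue, fewer cells of a type and less RNA per cell cannot be told apart in such a signal.

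The probe named for Hba-a2 (A_55_P1962299, chr11:32197245-32197304, plus strand, mm9) read almost the same RNA as the 3′ Hba-a1 probe, since the 60-base probes share a run of 59 bases. Its levels were 113, 58.2, 97.3 and 64.5 on the wild-type starch, wild-type sucrose, heterozygous starch and heterozygous sucrose arrays. The changes of both probes with sucrose in wild-type mice differed by -0.02 (SE over spots 0.029). The transcript accessions that the array files list for each of the 3 alpha-globin probes belong in RefSeq to both Hba-a1 and Hba-a2, so the 2 genes are not separated by these arrays.

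A second Hba-a1 probe lies further inside the transcript, from base 161 (A_55_P1962303, chr11:32183955-32184014, plus strand, mm9), in the coding region, and was also printed 10 times. Its levels were 53.7 on the wild-type starch array, 20.2 on wild-type sucrose, 38.8 on heterozygous starch and 24.3 on heterozygous sucrose. The lowest spot of the wild-type starch array stood at 51.3, and the highest of the 3 other arrays at 41.0. The change with sucrose was -1.41 (2.65-fold lower) in wild-type and -0.67 (1.60-fold lower) in heterozygous mice. The inner probe thus differed from the 3′ probe of the same gene: its change was lower by 0.43 in wild-type mice (-0.43, SE over spots 0.029), and the difference was -0.08 (SE 0.033) in heterozygous mice. The order of the 4 arrays was the same at both probes.

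**Figure D1:**
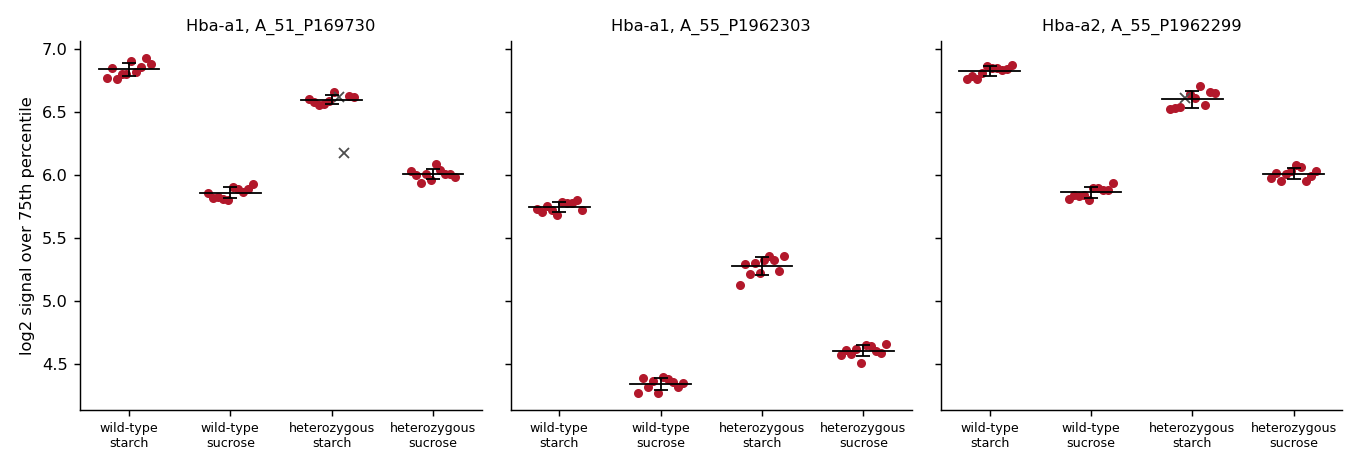
Each point is 1 spot of the 3 alpha-globin probes on each of the 4 arrays, as log2 of the signal over the array's 75th percentile. Crosses are outlier spots that were left out, and black bars show the mean and SD over the remaining spots; at the 3′ Hba-a1 probe the starch arrays lie at 6.84 and 6.60 and the sucrose arrays at 5.86 and 6.01.

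The 3 beta-globin probes, with 1 spot each, had the same order of arrays. The probe of Hbb-bt, an adult beta chain gene of the strain (A_55_P1973809, chr7:110961105-110961164, minus strand, mm9), had levels of 35.6 on wild-type starch, 13.9 on wild-type sucrose, 30.7 on heterozygous starch and 17.5 on heterozygous sucrose. Its diet change was -1.35 in wild-type and -0.81 in heterozygous mice, against a technical SD of 0.068 for probes in the top 25% by mean signal, from 291 probes with repeated spots. The probe named Hbb-b2 (A_55_P2038540, with no position in the files) had levels of 9.64, 3.01, 6.67 and 3.95 in the same order of arrays. Its wild-type diet change of -1.68 was the lowest of the 12 probes, and the heterozygous one was -0.75. The probe named Hbb-b1 (A_55_P2108151, chr7:110976379-110976438, minus strand, mm9) had levels of 2.82, 0.946, 2.05 and 1.12, with diet changes of -1.58 and -0.87. In all 3 the starch arrays were high, the wild-type sucrose array was the lowest and the heterozygous sucrose array stood just above it.

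The names of these probes do not settle which beta chain was read. B6 mice carry the pair Hbb-bs and Hbb-bt, while Hbb-b1 and Hbb-b2 are the names of the pair on the other common mouse haplotype. By the accessions listed for them, the Hbb-b1 probe reads Hbb-b1 and Hbb-bs, the Hbb-b2 probe Hbb-b1 and Hbb-b2, and the Hbb-bt probe Hbb-bt alone. The first 30 bases of the Hbb-b1 probe are shown beside the same stretch of the 2 strain genes in RefSeq (GRCm38.p6), with capitals where Hbb-bt differs. Over the bases that could be compared, the probe matched Hbb-bs in 46 of 46 and Hbb-bt in 38 of 45.
Hbb-b1 probe: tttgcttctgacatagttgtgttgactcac
Hbb-bs: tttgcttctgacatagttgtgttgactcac
Hbb-bt: tttgcttctgaTTCTgttgtgttgactTGc

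The alpha and beta chains share ancestry, and the probes of the coding region show how much of it remains at the level of a probe. The inner Hba-a1 probe and the Hbb-b2 probe are printed 5′ to 3′ with capitals at the bases that match in their best ungapped alignment, 25 of 40 aligned bases. Their longest shared run is 5 bases.
Hba-a1 A_55_P1962303: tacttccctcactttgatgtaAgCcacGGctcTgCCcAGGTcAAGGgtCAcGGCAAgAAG
Hbb-b2 A_55_P2038540: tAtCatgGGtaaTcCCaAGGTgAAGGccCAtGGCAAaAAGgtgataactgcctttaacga

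Alas2, the erythroid form of the first haem enzyme, had the array order of the globins, which no Alas1 probe had. Its probe at the end of the coding region (A_51_P327451, chrX:147004993-147005052, plus strand, mm9) had a level of 1.27 on wild-type starch, 0.405 on wild-type sucrose, 0.969 on heterozygous starch and 0.531 on heterozygous sucrose. Both sucrose arrays were low, at 31.9% and 41.9% of the wild-type starch array. The diet changes were -1.65 and -0.87, against a technical SD of 0.118 that rests on only 5 repeated probes of similar signal.

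Alas1, the form that supplies haem to mitochondrial and other enzymes in all cells, was read by 3 probes and none of them followed Alas2. The probe with the most signal (A_55_P2083649, chr9:106136284-106136343, minus strand, mm9) had levels of 9.47, 11.4, 10.4 and 11.6 on wild-type starch, wild-type sucrose, heterozygous starch and heterozygous sucrose. Its diet changes were 0.27 and 0.16 (technical SD 0.068). The second (A_52_P129756, chr9:106137803-106137862, minus strand, mm9) had levels of 0.895, 0.980, 0.837 and 0.892, with diet changes of 0.13 and 0.09. The last (A_66_P109200, chr9:106141046-106141105, minus strand, mm9) had levels of 0.556, 0.609, 0.555 and 0.635, with diet changes of 0.13 and 0.20. Each of the 3 stood higher on the sucrose array in both genotypes, and the changes of the latter pair lay within 2 technical SDs (0.118 each) of 0. The synthase probes are printed to show that they read different messages: the longest run that the Alas2 probe shares with any Alas1 probe is 6 bases.
Alas2 A_51_P327451: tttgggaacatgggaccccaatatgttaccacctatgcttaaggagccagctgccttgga
Alas1 A_66_P109200: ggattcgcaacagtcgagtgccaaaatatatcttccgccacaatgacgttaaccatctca
Alas1 A_52_P129756: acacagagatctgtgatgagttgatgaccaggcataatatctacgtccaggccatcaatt

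Fech, ferrochelatase, and Bpgm, which makes the 2,3-bisphosphoglycerate that lowers the oxygen affinity of haemoglobin, hardly differed between the arrays. The Fech probe (A_55_P2042146) had levels of 5.33, 5.32, 5.27 and 5.32, and every change was within 0.02 of 0. The Bpgm probe (A_52_P401640, chr6:34454792-34454851, plus strand, mm9) had levels of 3.33, 3.16, 3.11 and 2.98, with diet changes of -0.08 and -0.06 and genotype changes of -0.10 and -0.09. The difference between the Bpgm arrays at the ends of the range, -0.16, was 2.39 technical SDs.

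**Figure D2:**
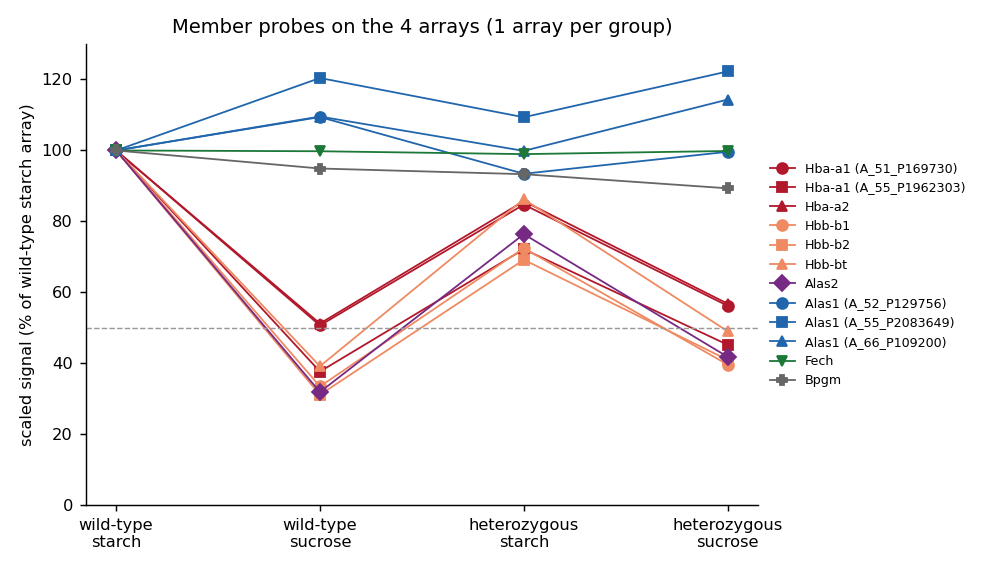
Lines show the 12 probes on the 4 arrays, with the signal as a percentage of the wild-type starch array on the vertical axis and the dashed line at 50%. The 7 globin and Alas2 probes run between 31.2% and 51.2% on the wild-type sucrose array and between 39.7% and 56.8% on the heterozygous sucrose array, while the 5 Alas1, Fech and Bpgm probes stay between 89.3% and 122%.

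Set against the whole array, the diet comparison in wild-type mice held 5 of the 12 probes at 2-fold lower or more, and 0 at 2-fold higher. Of the 42094 probes well above background on all arrays, 0.822% were 2-fold lower and 0.494% 2-fold higher in that comparison; the genes had been picked on this difference, so nothing is read from the count. The 5 were Hbb-b1, Hbb-b2, Hbb-bt, Alas2 and the inner Hba-a1 probe, and the 2 alpha-globin probes at the 3′ end lay just short, at -0.98 and -0.96. In heterozygous mice 0 of the 12 were 2-fold lower, beside 0.461% of all probes, and the 7 globin and Alas2 probes lay between -0.87 and -0.59 with a median of -0.75. The median of all probes was -0.0034 and -0.0028 in the 2 diet comparisons. The 2 diet comparisons have no array in common.

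**Figure D3:**
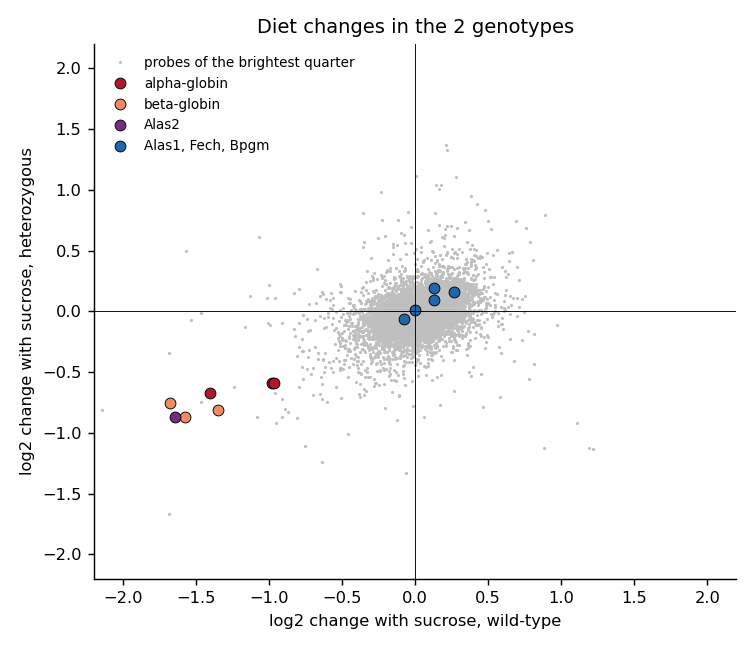
The log2 change with sucrose is plotted for wild-type mice (horizontal) and heterozygous mice (vertical), with grey points for the 10524 probes in the top 25% by mean signal and coloured points for the 12 probes. The globin and Alas2 probes lie at the lower left, between -1.68 and -0.96 in wild-type and between -0.87 and -0.59 in heterozygous mice, and Alas1, Fech and Bpgm lie among the grey points; Alas2 and 2 of the Alas1 probes are themselves dimmer than those.

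Genotype went with smaller differences. On starch, all 7 globin and Alas2 probes were lower on the heterozygous array, from -0.53 for Hbb-b2 to -0.21 for Hbb-bt (-0.12 under quantile normalization), with a median of -0.39. On sucrose, all 7 were higher on the heterozygous array, from 0.15 at the 3′ alpha-globin probes to 0.40 for Hbb-b2, with a median of 0.26. None of the 12 probes passed 2-fold in either comparison, where 0.938% and 1.43% of all probes did in either direction. The diet change was therefore less negative in heterozygous than in wild-type mice at each of the 7, by 0.37 to 0.93, short of 2-fold at 7 of 7, where 1.8% of all probes lay at 1 or higher and 0.948% at -1 or lower. With 1 array a group that difference has no test. The array of heterozygous sucrose was also set against that of wild-type starch, both of which the comparisons above had used, and there 5 of the 12 probes were 2-fold lower beside 0.66% of all probes, from -1.33 for Hbb-b1 to -1.03 for Hbb-bt, and the 3′ alpha-globin probes stood at -0.83 and -0.82. Under quantile normalization 3 probes were 2-fold lower, with the inner Hba-a1 probe at -0.98 and Hbb-bt at -0.89.

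The 4 arrays had the same rank at all 7 globin and Alas2 probes, with wild-type sucrose lowest, then heterozygous sucrose, then heterozygous starch, and wild-type starch highest. That order was found at 0 of the 5 Alas1, Fech and Bpgm probes, at 5.16% of all 42094 probes and at 6.98% of the 1633 probes that ranged over 2-fold or more.

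**Figure D4:**
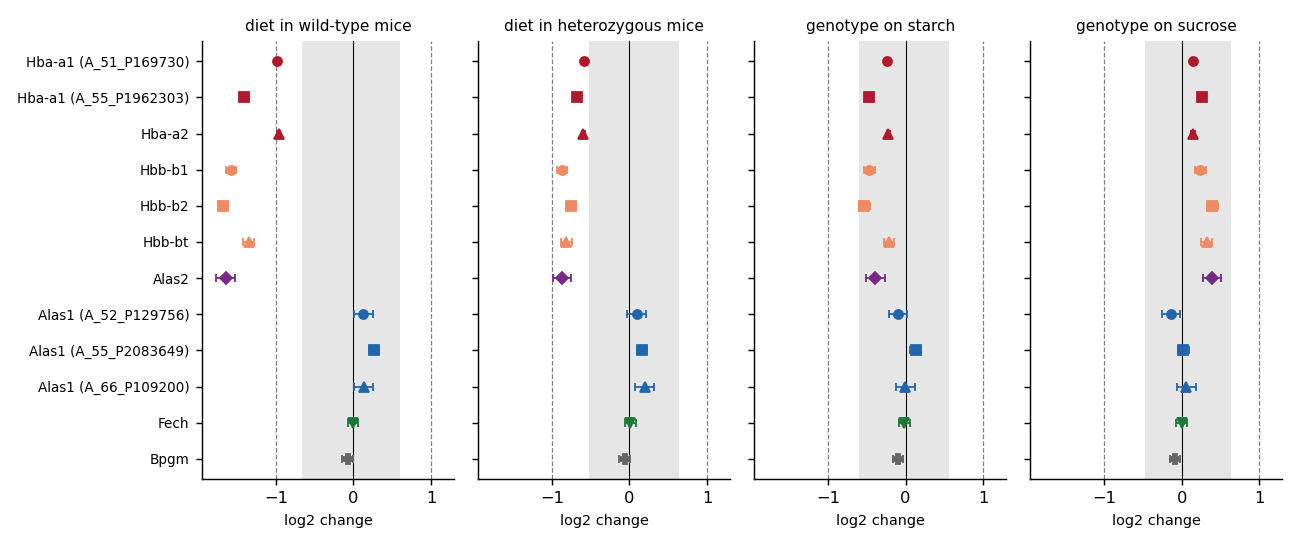
Points give the log2 change of the 12 probes in the 2 diet comparisons (sucrose minus starch) and the 2 genotype comparisons (heterozygous minus wild-type), with bars of 1 technical SD, dashed lines at 2-fold and grey bands that hold the middle 95% of all probes. The globin and Alas2 probes lie below the band in both diet comparisons and inside it in both genotype comparisons, on the negative side on starch and on the positive side on sucrose.

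The rest of the haem pathway did not share the globin pattern. All 16 other enzymes and carriers of haem synthesis on the list were measured, and 0 of them passed 2-fold in any comparison. Their diet changes ran from -0.21 to 0.33 in wild-type mice (median 0.04) and from -0.27 to 0.21 in heterozygous mice (median 0.03), close to the medians over all probes. Alad, the second enzyme of the pathway, had levels of 3.40, 3.52, 3.11 and 3.29 on wild-type starch, wild-type sucrose, heterozygous starch and heterozygous sucrose. Urod, uroporphyrinogen decarboxylase, had levels of 7.86, 8.12, 7.45 and 7.62. Slc25a37, mitoferrin 1, the mitochondrial iron importer used by red cell precursors, had diet changes of 0.03 and -0.27. None of the 3 had the globin order of arrays.

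Genes that break down, export or scavenge haem were also within 2-fold: 0 of 10 measured passed it, with diet medians of -0.05 and 0.01. Hmox1, the inducible haem oxygenase, had levels of 0.490, 0.428, 0.486 and 0.472, which is the globin order over a narrower range. Hp, the plasma scavenger of free haemoglobin, stood at -0.92 for diet in wild-type mice and at 0.06 in heterozygous mice. Among 12 measured genes of iron handling 0 passed 2-fold, with diet medians of -0.07 and 0.04; Tfrc, the transferrin receptor, had diet changes of 0.11 and 0.30. Among 13 measured regulators of Alas1 and of haem genes 0 passed 2-fold. Nr1d1, the circadian repressor that acts on Alas1, had diet changes of 0.73 and 0.61. Gata1, the master regulator of erythroid genes, was not well above background on any array. Nfe2, another regulator of the list, was well above background on the starch arrays only. Its signal was at least 1.95-fold higher on starch in wild-type mice and at least 2.09-fold higher in heterozygous mice. Of the other globins 5 of 9 on the array were measured and 0 passed 2-fold. Cygb, cytoglobin, had levels of 11.6, 12.1, 10.7 and 12.0 and Ngb, neuroglobin, had diet changes of 0.42 and 0.59. The embryonic beta-type gene Hbb-bh1 had diet changes of -0.76 and -0.14.

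Markers of blood cells were examined beside the globins, since the tissue contains vessels. Of 22 erythroid genes 21 were on the array and 16 were measured on all arrays, and their summed levels were 70.3, 68.0, 68.0 and 68.5 on wild-type starch, wild-type sucrose, heterozygous starch and heterozygous sucrose. The list held 2 genes at 2-fold lower or more with sucrose in wild-type mice and 1 in heterozygous mice. Slc4a1, the band 3 anion exchanger of the red cell membrane, had levels of 0.0976, 0.0446, 0.0677 and 0.0536, the same order as the globins, with diet changes of -1.13 and -0.34. Isg20, an interferon-induced exonuclease, had levels of 0.755, 0.279, 0.622 and 0.293, with diet changes of -1.44 and -1.09, and a dimmer second probe had -1.77 and -0.83. Acp5 was the 1 gene of the list past 2-fold higher, by 1.01 on the log2 scale, on heterozygous sucrose against wild-type starch. The median diet changes of the 16 genes were -0.11 and -0.01.

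Several erythroid-specific members of that list were near the floor. Ahsp, the chaperone of free alpha chains, was well above background on the starch arrays only, at levels of 0.0284 and 0.0199, and was at least 5.14-fold higher on starch in wild-type mice and at least 2.57-fold in heterozygous mice. Each bound compares the bright array with the lowest signal that counted as well above background on the dim array, or with the dim spot itself where that was larger. Kel was well above background on the wild-type starch array only, at a level of 0.00768. Rhag was not well above background on any array. Whether the number of red cells in the samples has a part in the globin values was not tested.

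Other cells of the blood and vessels were not uniform. Of 10 measured platelet genes 2 were 2-fold lower on sucrose in both genotypes: Ppbp, a platelet chemokine, at -1.55 and -1.82, and Clec1b at -1.23 and -1.11. Their order differed from that of the globins, with the heterozygous starch array highest (0.123 for Ppbp against 0.0659 on wild-type starch), and the summed platelet levels ran from 1.41 to 1.72. Of 10 neutrophil genes 1, Lcn2, was 2-fold lower on sucrose in wild-type mice (-1.24, and -0.74 in heterozygous mice); the list's medians were -0.27 and -0.45, with summed levels of 1.31, 0.962, 1.53 and 1.26. Of 7 monocyte genes 1, Ccr2, was 2-fold lower with sucrose in wild-type mice (-2.75) and 0 in heterozygous mice. The Ccr2 level was 0.0845 on wild-type starch, 0.0125 on wild-type sucrose, 0.0124 on heterozygous starch and 0.0142 on heterozygous sucrose. That change thus rests on the wild-type starch array alone. The summed monocyte levels were 20.9, 15.2, 18.9 and 14.3, nearly all of it from Ly6c2 and Fn1. Of 9 lymphocyte genes 0 passed 2-fold, with summed levels of 2.62, 2.51, 2.27 and 2.35. Of 12 endothelial genes 0 passed 2-fold, with diet medians of -0.01 and -0.12, and the summed levels were 46.0, 37.1, 42.9 and 36.2. Within that list Ly6c1 had diet changes of -0.67 and -0.39 and the tight junction gene Cldn5 of -0.57 and -0.10. Lcn2, Ly6c1 and Cldn5 had the array order of the globins. The part of these cell types in the globin values was not tested.

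**Figure D5:**
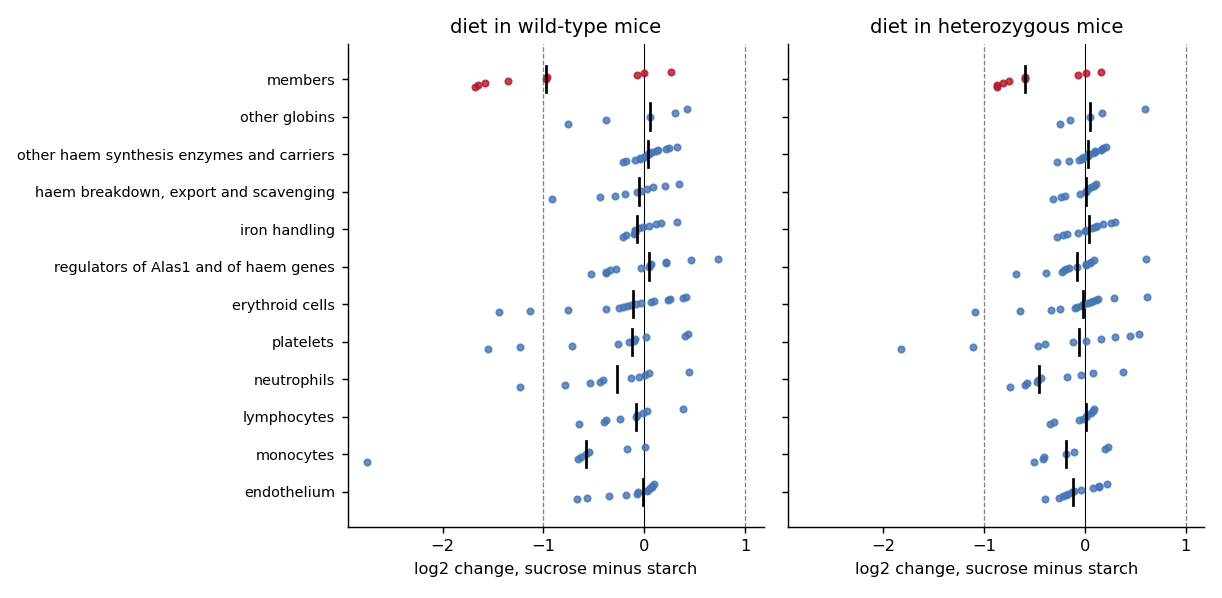
Each point is 1 gene of a list, with its log2 change between the sucrose and the starch array on the horizontal axis, in wild-type mice (left) and heterozygous mice (right). Black bars are medians over the list and dashed lines mark 2-fold; the genes described here (red) have medians of -0.98 and -0.59, and the 16 other haem synthesis genes lie between -0.27 and 0.33.

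Because the globin and Alas2 transcripts had the same order over the arrays, the sequences before their starts are shown. Promoter windows from RefSeq (GRCm38.p6, another build than that of the probe positions) were used for Hba-a1, Hba-a2, Hbb-bt, Alas2, Alas1 and Bpgm, and for Hbb-bs. Those of Hbb-b1, Hbb-b2 and Fech were not used here. Each sequence below ends at the base before the start, is written on the gene's strand, and has its motifs in capitals, searched on both strands. GATAA is the core of sites for GATA factors. CACCC is a core of sites for KLF factors. CCAAT is the box that NF-Y reads. ATATAA is a form of the TATA box. The windows are chr11:32283462-32283671 (plus strand) for Hba-a1, chr7:103827929-103828138 (minus) for Hbb-bs, chr7:103813924-103814133 (minus) for Hbb-bt and chrX:150547207-150547416 (plus) for Alas2.
Hba-a1: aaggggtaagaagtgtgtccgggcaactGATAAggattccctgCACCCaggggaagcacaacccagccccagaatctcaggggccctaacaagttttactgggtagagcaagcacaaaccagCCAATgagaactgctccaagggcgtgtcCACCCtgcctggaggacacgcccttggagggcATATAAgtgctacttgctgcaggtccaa
Hbb-bs: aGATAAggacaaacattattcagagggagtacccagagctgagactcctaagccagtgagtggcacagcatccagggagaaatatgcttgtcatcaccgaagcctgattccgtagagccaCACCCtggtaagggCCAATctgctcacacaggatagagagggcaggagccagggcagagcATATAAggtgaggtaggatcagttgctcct
Hbb-bt: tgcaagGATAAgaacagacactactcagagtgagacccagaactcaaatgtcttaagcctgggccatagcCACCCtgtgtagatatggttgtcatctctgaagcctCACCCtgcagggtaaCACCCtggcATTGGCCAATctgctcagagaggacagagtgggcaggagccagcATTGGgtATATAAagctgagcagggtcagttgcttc
Alas2: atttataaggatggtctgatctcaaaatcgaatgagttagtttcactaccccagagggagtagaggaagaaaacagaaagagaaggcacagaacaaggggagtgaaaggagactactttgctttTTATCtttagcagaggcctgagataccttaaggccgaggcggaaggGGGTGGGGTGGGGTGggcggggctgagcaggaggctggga

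In the 250 bases before the start, Hba-a1, Hba-a2, Hbb-bs and Hbb-bt held all 4 motifs, as 153 of 32851 RefSeq windows did (0.466%). In Hba-a1 the GATAA began 182 bases before the start, the CCAAT 88, the CACCC 167 and 60, and the ATATAA 28. The Hba-a2 window shares a run of 297 of 300 bases with that of Hba-a1. Hbb-bt held CCAAT 3 times, and 2 of these lie end to end on opposite strands, from 80 and 75 bases before the start. Alas2 held GATAA 86 bases before the start and CACCC 3 times, from 40 bases on, but neither CCAAT nor ATATAA. Both Alas1 windows held CACCC alone and the Bpgm window CCAAT alone, 3 times. GATAA was found in 22.6% of all windows, CACCC in 52.0%, CCAAT in 33.8% and ATATAA in 9.10%. These are matches of letters, and nothing on these arrays measured binding.

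The genes whose profile over the 4 arrays lay nearest to that of the Hbb-b1 probe were ranked by the root mean square difference of the centred log2 levels, among 1628 probes with a range of 2-fold or more. Within the genes described here, Hbb-b2 lay at 0.06, Alas2 at 0.06, the inner Hba-a1 probe at 0.09, Hbb-bt at 0.12 and the 3′ alpha-globin probes at 0.24, while Alas1, Fech and Bpgm lay at 0.60 to 0.75. Outside them the 10 nearest genes were Ccl8 (0.07), Ccl5 (0.08), BC057675 (0.08), Isg20 (0.09), Gm8232 (0.11), Zdhhc22 (0.13), Gbp6 (0.13), Zfp711 (0.13), Lcn2 (0.15) and BE944806 (0.15). Ccl8 and Ccl5 are chemokines, and Gbp6 and Isg20 are interferon-induced genes. Ccl5 had levels of 0.232 on wild-type starch, 0.0811 on wild-type sucrose, 0.163 on heterozygous starch and 0.103 on heterozygous sucrose, the globin order again. Such a ranking over 4 arrays takes the nearest of many probes and has no test. For the profiles of smaller range, neighbours were sought among 42082 probes with no limit on range. Cpsf7, Slc25a22 and Erc2 lay within 0.01 of the brightest Alas1 probe, Nutf2 and Brpf1 within 0.01 of Fech, and Rpl17 and Rgs7 within 0.01 of Bpgm. Nothing is read from these names.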

How the data were processed

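The deposited scanner files held intensity values per spot, made with Agilent Feature Extraction 11.5.1.1 per the submitters' processing notes, and per the file headers the software had already subtracted the background and detrended the arrays. The authors' series matrix held 1 ratio per spot, the processed signal over the 75th percentile, and gave the same values. Build mm9 is that of the file headers; names, promoters and probe matches came from RefSeq (GRCm38.p6), in which all 9 genes were found.

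From the processed signal, log2 levels over the 75th percentile were computed without control and outlier spots, and spots of a probe were averaged (Python 3.11.15, pandas 2.3.3). The technical SD came from probes printed repeatedly. With 1 array a group there is no test, and the number of arrays limits the precision; a probe counts as changed at 2-fold, among 42094 probes. The 4 arrays lay on 1 slide, 1 group a position, so position and group cannot be told apart. A gene in a list was read by its brightest probe. List members past 2-fold were named, at most 6 a list, as were the 10 genes nearest in profile. The lists were other globins, other haem synthesis, haem breakdown, iron handling, regulators, erythroid cells, platelets, neutrophils, lymphocytes, monocytes, endothelium, choroid plexus, striatum, cortical neurons and control genes (diet medians -0.05 and -0.05). The computation was checked on simulated data. Members and lists were chosen with earlier results of these data known. Slc4a1, Ngb, Nr1d1 and further genes given below 2-fold were picked for their function or after their values were seen. Results for some list genes are not reported here.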

Additional observations from a re-analysis of the deposited data

Results flagged for a closer look

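At all 7 globin and Alas2 probes the difference between the genotypes pointed in opposite directions on the 2 diets: the heterozygous array was lower than wild-type on starch and higher on sucrose. The diet change in heterozygous minus that in wild-type mice was 0.39 at the 3′ Hba-a1 probe, 0.73 at the inner Hba-a1 probe, 0.37 at the Hba-a2 probe, 0.71 for Hbb-b1, 0.93 for Hbb-b2, 0.54 for Hbb-bt and 0.78 for Alas2, on the log2 scale. With 1 array a group this difference was not tested. The 3 alpha-globin probes read the same genes and the beta-globin probes overlap in their targets, so the 7 values are not independent. Over all probes 1.8% had a value of 1 or higher and 0.948% of -1 or lower, and none of the 7 did.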

How the results depend on the processing

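Of the 8 alternatives, 5 could move a value of the 12 probes. These were median scaling, quantile normalization, normexp background correction, no background subtraction and outlier spots kept. No sign of a globin or Alas2 change turned under them, and the largest shift of any of the 12 probes was 0.17, under quantile normalization. The others could not turn a sign. No filter and probes above the median signal only alter which probes are counted, and the series matrix holds the same values. Signs turned only at Alas1, Fech and Bpgm values of at most 0.02 in size. With heterozygous sucrose set against wild-type starch, 5 of the 12 probes were 2-fold lower, and 3 under quantile normalization.

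Over all probes, the counts past 2-fold were 554 and 614 for diet in wild-type and heterozygous mice, 395 and 603 for genotype on starch and sucrose, 766 for heterozygous sucrose against wild-type starch and 1155 for the interaction. In that order they were 175, 224, 100, 230, 232 and 356 under normexp, 275, 356, 184, 361, 383 and 554 without background subtraction, 3304, 2984, 3052, 3083, 3559 and 5374 without the filter on dim probes, and 94, 81, 41, 81, 126 and 120 among probes above the median signal. Dim probes thus set most of the background count.

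The mean over a gene's probes in place of the brightest moved 18 of 96 list medians and turned the sign of 8, all within 0.05 of 0; that of the 9 genes went from -0.98 to -1.19 for diet in wild-type mice.

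No paired analysis was possible because each group has 1 array, and leaving out an array leaves its comparison without a value. Repeated spots cover the array's error only, and the dimmest probes have no technical SD, which bears on the near-background markers.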
